A study of Mus musculus with 12 samples.

Results

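The potassium channel genes were taken as every gene whose symbol starts with Kcn, 98 of 24318 genes in a table of hippocampal expression, and as every back-splice junction assigned to such a gene, 45 of 7025 junctions in a second table. These junctions came from 15 of the 98 genes. The samples were hippocampus of 7-month-old mice, either wild type (WT) or of the 5xFAD strain, whose transgenes, mutated human APP among them, carry familial Alzheimer's disease mutations under Thy1 regulatory sequence that is active in neurons. Each genotype had 3 libraries under the title prefix CG, which gave FPKM per gene (fragments scaled by transcript length and library size), and 3 under the prefix AT, which gave a normalized signal per junction. The labels leave both prefixes unexplained. The design mentions a depletion of rRNA for one kind of sequencing, and tailing plus RNase R, which digests linear RNA but not circles, for the other. A back-splice junction joins the end of an exon to the start of an earlier or the same exon and marks a circular RNA.

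Potassium channels let potassium leave or enter a cell and so set the resting potential, the shape of the action potential and the rate of firing. Voltage-gated (Kv) channels are tetramers of pore subunits that open on depolarization, with cytoplasmic beta subunits, calcium-binding KChIP proteins and small KCNE proteins as partners. Calcium- or sodium-activated channels couple firing to ion entry, inward rectifiers (Kir) hold the resting potential or answer G protein signals, and tandem pore (K2P) channels carry leak current. In the hippocampus, pyramidal and granule neurons and interneurons use different sets of these, and astrocytes clear extracellular potassium through Kir channels.

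Each CG library summed to between 385214 and 412157 FPKM, and its depth in reads is unknown. Junction reads recovered per AT library numbered 438790, 695539 and 695528 for WT, against 191408, 683540 and 659414 for 5xFAD. The labels do not tie samples to separate animals. The p-values therefore describe only how far these samples differ, which may be technical. Thy1, which the transgene sequence shares, was at 296 to 340 FPKM in WT and at 1136 and 1172 in the first pair of 5xFAD libraries, but at 305 in the one labelled 5xFAD replicate 3, which goes against its label. Malat1 was at 3608, 3288 and 3425 FPKM in WT and at 0 in all 3 libraries labelled 5xFAD. In this gene replicate 3 went with its label, and the cause of the zeros was not tested. Xist, a transcript of female cells, was at 0.246 and 0.136 FPKM in the CG libraries numbered 1 of WT and 5xFAD and between 99.9 and 112 in the other 4, so the libraries numbered 1 differed from the rest at least in this marker of sex. The summed FPKM of 7 markers of pyramidal and granule neurons was 1243 to 1456 in every CG library, with no marker at 0.

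Most of the family was measurable in this tissue. Of 98 members, 79 averaged at least 0.5 FPKM over the 6 CG libraries and entered the test, 15 were above 0 in at least 1 library but under that mean, and 4 (Kcne1, Kcnj1, Kcnk16 and Kcnmb3) were listed at 0 throughout. By WT mean, 6 members reached 50 FPKM, 17 lay from 20 to 50, 27 from 5 to 20, 28 from 0.5 to 5 and 20 below 0.5. The median WT mean of the 79 tested members was 8.89 FPKM, beside 9.14 over all genes tested. All levels in this and the following paragraphs are means ± SD over 3 WT libraries (n = 3), and FPKM is scaled by transcript length, so they can be set side by side between genes.

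Among the Kv pore subunits, the Kv7 gene Kcnq3, a subunit of the M-current channel that restrains repetitive firing, was at 43.8 ± 4.61 FPKM and Kcnq5 at 17.5 ± 2.21 FPKM, while Kcnq1, the cardiac and epithelial member, averaged under 0.5. The Kv1 subunits that line axons were led by Kcna1 at 43.1 ± 7.76 and Kcna2 at 32.2 ± 10.5 FPKM, with Kcna4 at 19.0 ± 1.26. Kcna3, best known from T cells and microglia, was at 6.80 ± 0.346 FPKM. Kcnb2, a delayed rectifier of the Kv2 family, was at 7.34 ± 1.53 FPKM. Of the Kv3 genes of fast-spiking neurons, Kcnc1 was at 33.4 ± 3.93 and Kcnc2 at 24.6 ± 6.62 FPKM. Of the Kv4 genes, which carry the A-type current of dendrites, Kcnd2 was at 37.3 ± 6.35 and Kcnd3 at 25.5 ± 2.80 FPKM, while Kcnd1 was at 2.19 ± 0.336. In the ether-a-go-go (EAG) family Kcnh7, Kcnh3 and Kcnh1 followed at 18.8 ± 3.34, 15.1 ± 0.644 and 11.6 ± 0.215 FPKM. The electrically silent subunits, which modify Kv2 channels, were led by Kcnf1 at 16.1 ± 2.28, Kcnv1 at 10.7 ± 0.660 and Kcng1 at 10.02 ± 1.03 FPKM.

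The auxiliary subunits held the highest level of all members. Kcnab2, a Kv beta subunit, was at 174 ± 14.2 FPKM and made up 74.6% of the summed FPKM of its family, ahead of Kcnab1 at 50.5 ± 4.12 and Kcnab3 at 8.89 ± 1.21. The KChIP genes, which tune Kv4 channels, were at 53.2 ± 11.4 for Kcnip2, 30.8 ± 3.76 for Kcnip3 and 26.8 ± 1.39 FPKM for Kcnip4, and the last pair did not differ beyond their spread. For the large-conductance calcium-activated (BK) channel, the pore gene Kcnma1 was at 66.8 ± 6.45 FPKM, its neuronal beta subunit Kcnmb4 at 16.3 ± 1.17 and Kcnmb2 at 1.53 ± 0.337. Of the small-conductance (SK) channels of the afterhyperpolarization, Kcnn2 was at 26.0 ± 1.88 FPKM, with Kcnn3 at 4.91 ± 1.26 and Kcnn1 at 3.72 ± 0.259. Kcnn4, the intermediate-conductance channel of immune cells and erythrocytes, stayed at or below 0.127 FPKM in every library. The sodium-activated genes Kcnt2 and Kcnt1 were at 17.1 ± 1.05 and 8.48 ± 1.13 FPKM, and Kcnu1, known from sperm, at 0.798 ± 0.0555.

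Inward rectifiers were led by Kcnj6 at 62.8 ± 3.37 and Kcnj3 at 44.2 ± 5.71 FPKM, both subunits of the G protein-gated channels opened by GABA-B and other receptors. Kcnj10, the main potassium-buffering channel of astrocytes, was at 35.1 ± 10.9 FPKM, and its partner Kcnj16 at 7.64 ± 1.13. Kcnj8, the pore of the ATP-sensitive channel of pericytes, was at 1.23 ± 0.273 FPKM. The K2P leak channels were led by Kcnk1 at 31.2 ± 1.25, Kcnk9 at 18.4 ± 2.04 and Kcnk2 at 11.98 ± 0.930 FPKM. Among the members whose symbols name no channel subunit, the long non-coding Kcnq1ot1 was at 7.76 ± 0.494 FPKM, Kcnmb4os1 and Kcnmb4os2 at 3.61 ± 1.33 and 2.58 ± 0.321, and Kcnrg at 1.92 ± 0.260. In RefSeq (GRCm38.p6) Kcnq1ot1 overlaps Kcnq1, both Kcnmb4os transcripts overlap Kcnmb4, Kcnab2 overlaps Nphp4 and Kcnh3 overlaps Mcrs1. Kcnrg overlaps Dleu2 and Trim13, Kcnh7 overlaps Gca, and further members overlap genes not named here. No source used here gives the strand setting of the counting, so reads of such pairs cannot be told apart.

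**Figure D1:**
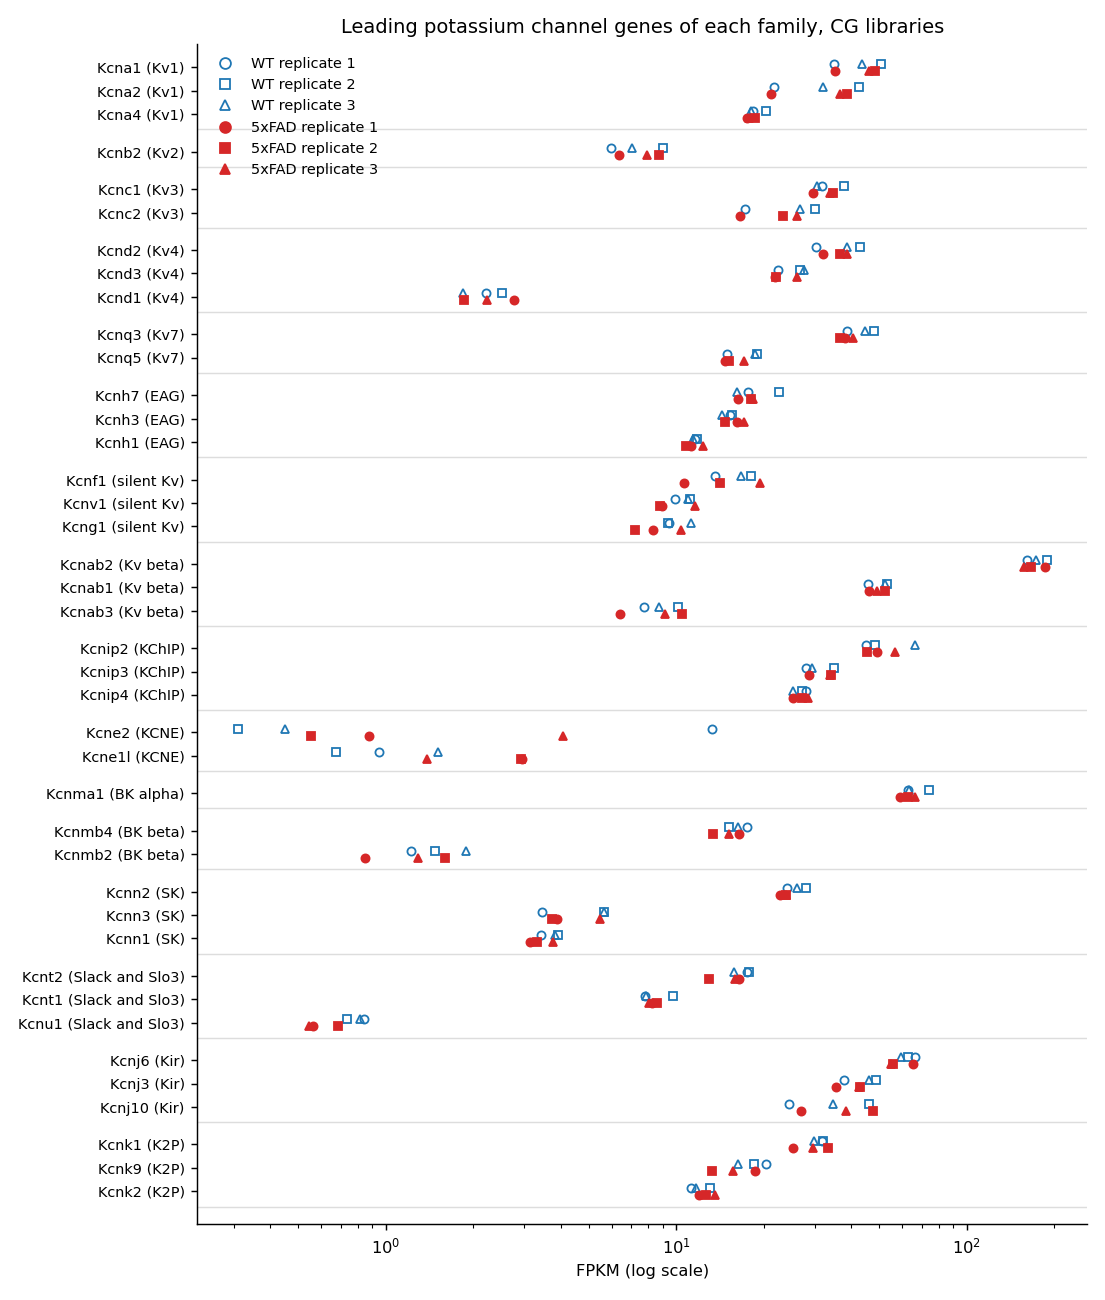
FPKM (log axis) of up to 3 of the leading genes of each potassium channel family, 1 point per CG library, open blue for WT and filled red for libraries labelled 5xFAD, with the marker shape giving the replicate number. WT and 5xFAD points lie within each other's range for most genes, while Kcne2 spans 0.310 to 13.3 FPKM and Kcna2, Kcnc2 and Kcnj10 have their circles (replicate 1) lowest in both genotypes.

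No potassium channel gene passed the comparison of 5xFAD with WT. Over all 6 CG libraries limma called 0 of 79 members, beside 1 of 14500 genes tested (0.0069%), and at an unadjusted p under 0.05 it counted 2 members, beside 2.92% of all genes. The 1 gene called was Malat1, lower in 5xFAD. Since the library labelled 5xFAD replicate 3 held WT levels of Thy1, every comparison is also given without it: limma then called 0 of 78 members, beside 1.2% of 14527 genes (1.18% higher and 0.0138% lower), with 5 members at an unadjusted p under 0.05, beside 5.91%. Log2 differences on the log2(FPKM + 1) scale, 5xFAD minus WT, ran from -0.61 to 0.72 over the 79 members, and 76 of them were smaller than 0.5 in size. Differences of at least 0.5 were found in 3 of 79 members with 6 libraries, beside 2.55% of all genes, and in 5 of 78 with 5 libraries, beside 4.48%. A positive difference was found in 30 of 79 members, beside 45.8% of all genes, and in 26 of 78 without the doubted library, beside 45.7%. The median difference was -0.04 over the members and -0.01 over all genes with 6 libraries, and -0.07 and -0.02 with 5.

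The largest positive differences were in 3 members of low level. Kcne1l, also called Kcne5, a small auxiliary subunit that inhibits Kcnq1 channels, was at 0.948, 0.673 and 1.51 FPKM in WT and at 2.94, 2.91 and 1.39 in 5xFAD. Replicates 1 and 2 of 5xFAD were above every WT library, and the library labelled 5xFAD replicate 3 was between the WT values. The log2 difference was 0.72 (SE 0.24, limma adjusted p = 1.00) with 6 libraries and 0.96 (SE 0.20, limma adjusted p = 0.0952) without that library, so it passed in neither. Kcnj2, a strong inward rectifier, was at 3.00, 5.13 and 3.19 FPKM in WT and at 6.03, 9.57 and 4.24 in 5xFAD. Its groups overlapped only through the library labelled 5xFAD replicate 3, and its log2 difference was 0.64 (SE 0.27, limma adjusted p = 1.00) with 6 libraries and 0.88 (SE 0.25, limma adjusted p = 0.295) with 5. Kcnk6, a K2P channel, was at 0.556, 1.07 and 1.11 FPKM in WT and at 1.55, 2.15 and 0.849 in 5xFAD, with the same library inside the WT range. Its log2 difference was 0.37 (SE 0.22) with 6 libraries and 0.58 (SE 0.20) with 5, and limma adjusted p was 1.00 and 0.548. Only a fit of the 5 libraries with the replicate number as a further term, chosen after seeing the data, called members. These were Kcne1l and Kcnj2, 2 of 78, both higher, beside 1.38% of all genes (1.36% higher and 0.0207% lower). In that fit WT replicate 3 had no partner of its number. Its genotype differences therefore rested on replicates 1 and 2 of each genotype alone.

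Markers of microglia moved with these 3 genes. Summed markers of oligodendrocytes and astrocytes were also above every WT library in the first pair of 5xFAD libraries. Those of oligodendrocyte precursors were not. The summed FPKM of 8 microglia markers, none of them at 0 in every library, was 108, 128 and 116 in WT, 414 and 389 in the first pair of 5xFAD libraries, and 118 in the doubted one. That of 6 oligodendrocyte markers was 1750, 1591 and 1579 in WT, 1930 and 1945 in that pair, and 1555 in the doubted one. Astrocyte markers summed to 1077, 1361 and 1170 in WT, 1620 and 1731 in that pair, and 1275 in the doubted one. Within that sum Gfap was at 118, 99.1 and 95.9 FPKM in WT and at 589 and 449 in that pair. Aldh1l1, Aqp4 and Aldoc were also above WT in that pair, while Slc1a2, Slc1a3 and Gja1 overlapped. Oligodendrocyte precursor markers summed to 46.5, 58.8 and 54.4 in WT, 52.5 and 58.1 in that pair, and 51.5 in the doubted one. In these bulk samples, more cells of a type and more RNA per cell cannot be told apart. The part of microglia or other glia in the levels of Kcne1l, Kcnj2 and Kcnk6 was not tested. The microglial K2P channel gene Kcnk13 stood at 2.85, 2.76 and 3.37 FPKM in WT and at 3.40, 3.46 and 3.42 in 5xFAD. Every library labelled 5xFAD was above every WT library, by little, and the log2 difference of 0.15 (SE 0.11, limma adjusted p = 1.00) did not pass. Kcna3 differed by -0.04 (SE 0.10).

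Other members with positive differences were closer to the spread. Kcnh5, of the EAG family, was at 4.98, 6.58 and 6.24 FPKM in WT against 6.44, 8.86 and 7.79 in 5xFAD, a difference of 0.32 (SE 0.14). Kcns1, a silent subunit, was at 3.00, 2.33 and 1.88 FPKM in WT against 3.07, 3.06 and 2.87 in 5xFAD, a difference of 0.25 (SE 0.15), and the antisense transcript Kcnmb4os2 differed by 0.21 (SE 0.13). Groups did not overlap, with 5xFAD higher, for Kcnk12, Kcnk13 and Kcnmb4os2, 3 of 79 members beside 2.92% of all genes. Kcnk12, a relative of Kcnk13, was outside the rule for named genes and was named after its values were seen.

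On the lower side, Kcnj13 and Kcne2 are described apart, and the other differences named with 6 libraries were at most 0.25 in size. Kcns3, a silent subunit, was at 3.74, 4.93 and 3.94 FPKM in WT and at 3.37, 3.37 and 3.48 in 5xFAD, so that the groups did not overlap, with a log2 difference of -0.23 (SE 0.12). Kcnn2 was at 24.1, 27.9 and 26.1 FPKM in WT and at 22.8, 23.8 and 23.9 in 5xFAD, again without overlap, a difference of -0.14 (SE 0.09). With Kcnu1, these were the 3 of 79 members lower in every 5xFAD library, beside 2.74% of all genes. Kcnq3 was at 38.8, 47.9 and 44.6 FPKM in WT and at 38.3, 36.6 and 40.5 in 5xFAD, which overlapped, a difference of -0.18 (SE 0.10). Kcnh8 differed by -0.25 (SE 0.15), Kcnk9 by -0.21 (SE 0.14), and Kcnt2 by -0.17 (SE 0.11). Limma adjusted p was 1.00 for each of these genes in the fit of 6 libraries.

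Without the library labelled 5xFAD replicate 3, the lower members with the smallest p were Kcnj16, Kcng1, Kcnf1 and Kcnv1. Kcnj16 was at 6.38, 8.56 and 7.97 FPKM in WT, at 5.12 and 5.96 in the first pair of 5xFAD libraries, and at 8.24 in the doubted one. Its log2 difference was -0.40 (SE 0.15, limma adjusted p = 0.724) with 5 libraries and -0.23 (SE 0.17) with 6. The silent subunits Kcng1, Kcnf1 and Kcnv1 differed by -0.33 (SE 0.13), -0.35 (SE 0.17) and -0.24 (SE 0.12) with 5 libraries and by -0.20, -0.15 and -0.12 with 6. Kcnh2, of the EAG family, differed by -0.22 (SE 0.13) with 5. In these 5 libraries the groups did not overlap for 7 members higher in 5xFAD, beside 10.6% of all genes, and for 12 members lower in 5xFAD, beside 7.5% of all genes.

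**Figure D2:**
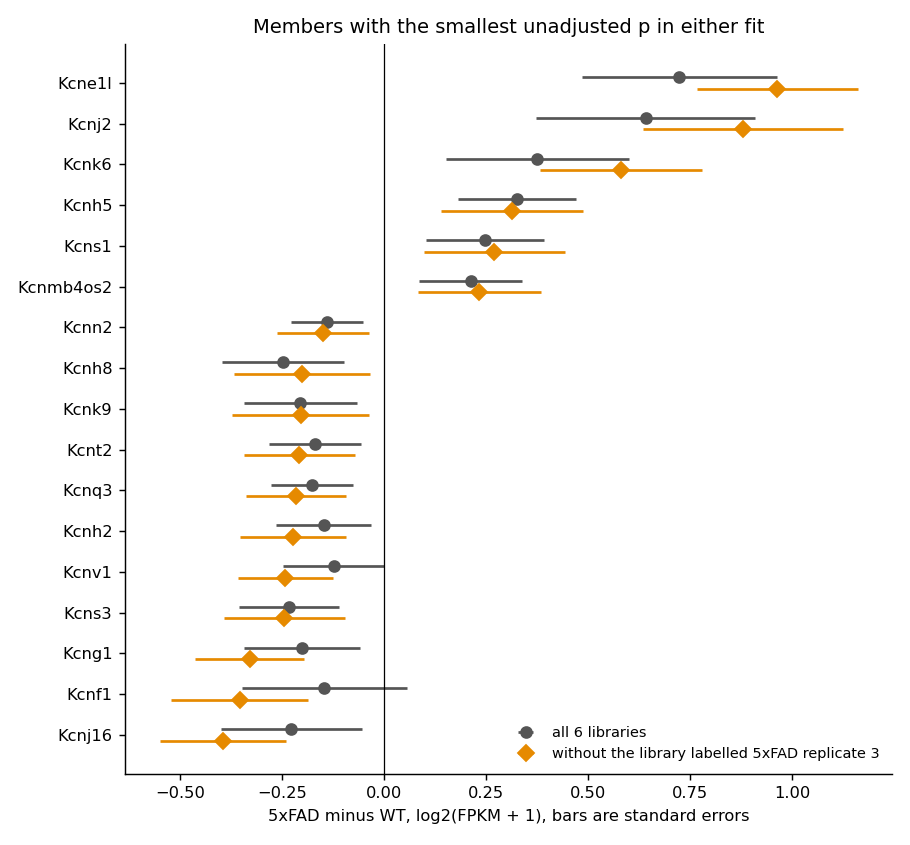
Log2 difference of 5xFAD minus WT on the log2(FPKM + 1) scale, with standard errors, for the members with the smallest unadjusted p in the fit of 6 CG libraries (grey circles) or in the fit of 5 (orange diamonds). Kcne1l, Kcnj2 and Kcnk6 lie farthest from 0 and move outward without the library labelled 5xFAD replicate 3, and no difference shown passed the adjusted test in either fit.

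By family, the median differences were small and of both signs. In the 6 libraries, the 4 tested Kv7 genes had a median log2 difference of -0.14, with 0 of 4 positive, and the 3 tested SK genes one of -0.13, with 0 of 3 positive. The 9 silent subunits had a median of -0.12 with 2 of 9 positive. Medians of the 6 Kv1, 4 Kv3 and 4 KChIP genes were -0.02, -0.04 and -0.01. Those of the 12 Kir and 9 K2P genes were 0.00 and 0.06, with 6 of 12 and 6 of 9 positive. No member of any family was called, and members of a family were not treated as replicates. The summed marker FPKM of inhibitory neurons, which use Kv3 channels heavily, was 552, 495 and 532 in WT, 409 and 405 in the first pair of 5xFAD libraries, and 515 in the doubted one. Sst held much of this sum, at 338, 236 and 288 FPKM in WT and at 228, 192 and 287 in 5xFAD. With 6 libraries 7 of the 8 markers differed negatively, Pvalb by only -0.04 (SE 0.12), and Vip differed by 0.00 (SE 0.15). The part of these neurons in the Kv3 levels was not tested.

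A pair of members followed one library. Kcnj13, an inward rectifier of choroid plexus and retinal pigment epithelium, was at 36.8, 2.85 and 1.58 FPKM in WT and at 2.30, 3.04 and 6.88 in the libraries labelled 5xFAD. Kcne2, an auxiliary subunit found in choroid plexus and stomach, was at 13.3, 0.310 and 0.450 FPKM in WT and at 0.878, 0.552 and 4.09 in 5xFAD. Both were highest in WT replicate 1 and next highest in the library labelled 5xFAD replicate 3. The 7 choroid plexus markers showed the same order: their summed FPKM was 3332 in WT replicate 1, 659 in the library labelled 5xFAD replicate 3 and 109 to 151 in the other 4, each of the 7 was highest in WT replicate 1, and none was at 0 in every library. With 6 libraries the log2 difference of Kcnj13 was -0.61 (SE 0.90) and that of Kcne2 was -0.29 (SE 0.89). Without WT replicate 1 they were 0.58 (SE 0.37) and 0.83 (SE 0.47), of the opposite sign, and neither passed. Kcnj13 also lies within the span of Gigyf2 in RefSeq (GRCm38.p6), so reads of the pair could be mixed. Gigyf2 itself was at 22.1, 22.2 and 23.0 FPKM in WT against 20.0, 20.7 and 23.3 in 5xFAD, with no excess in WT replicate 1.

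Since Kcnj13 and Kcne2 moved together, the 250 bases before each of their start sites listed by RefSeq (GRCm38.p6) are printed 5′ to 3′, with matches of TATAAA or TAATCC on either strand in capitals. TATAAA is the core of the TATA box, and TAATCC is a site of Otx2, a transcription factor of choroid plexus. The windows are chr1:87394730-87394979 on the minus strand for Kcnj13, and chr16:92292139-92292388 and chr16:92295366-92295615 on the plus strand for the 2 listed starts of Kcne2.
Kcnj13: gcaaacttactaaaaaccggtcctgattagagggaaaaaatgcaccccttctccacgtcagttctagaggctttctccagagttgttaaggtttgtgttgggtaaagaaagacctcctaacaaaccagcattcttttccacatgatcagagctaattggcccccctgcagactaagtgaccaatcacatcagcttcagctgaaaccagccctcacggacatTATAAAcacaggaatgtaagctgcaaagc
Kcne2, first start: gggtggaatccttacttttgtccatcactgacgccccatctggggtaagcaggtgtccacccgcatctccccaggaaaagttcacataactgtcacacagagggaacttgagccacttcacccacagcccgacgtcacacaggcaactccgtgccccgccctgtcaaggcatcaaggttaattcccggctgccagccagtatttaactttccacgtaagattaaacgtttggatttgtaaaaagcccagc
Kcne2, second start: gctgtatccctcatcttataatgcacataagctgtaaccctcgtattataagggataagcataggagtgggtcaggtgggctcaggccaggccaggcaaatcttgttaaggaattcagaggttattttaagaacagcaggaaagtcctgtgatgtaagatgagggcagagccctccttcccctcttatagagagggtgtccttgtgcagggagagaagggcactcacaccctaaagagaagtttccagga
The 1 match, TATAAA in Kcnj13, begins 29 bases before the listed start. RefSeq listed 97 starts for 72 of the 98 members, of which 3 held TATAAA in these 250 bases and 2 held TAATCC, beside 12.4% and 6.25% of all 32851 listed starts. The observed over expected ratio of CpG was 0.240 for Kcnj13, and 0.544 and 0.0710 for the 2 starts of Kcne2. A ratio above 0.6 was found for 31.3% of starts of tested members, for 17.6% of starts of members below the test's level, and for 34.0% of all starts.

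With all 6 CG libraries, more members split by replicate number than by genotype, as over all genes. The 2 kinds of split are of unequal size, and the genotype split includes the library labelled 5xFAD replicate 3. Without that library the genotypes did not overlap in 7 members higher and 12 lower in 5xFAD, beside 10.6% and 7.5% of all genes. In 22 of 79 members both CG libraries numbered 1 were below the other 4, beside 20.6% of all genes tested, and in 6 both were above, beside 17.8%. Kcna2 was at 21.7 and 21.2 FPKM in replicate 1 of WT and 5xFAD and at 42.7, 32.1, 38.7 and 36.6 in the others, a ratio of means of 0.572. Kcnj10 was at 24.4 and 27.0 FPKM in the libraries numbered 1 and at 46.2, 34.7, 47.5 and 38.4 in the others, a ratio of 0.616. In Kcnc2 the values were 17.2 and 16.5 FPKM against 30.0, 26.6, 23.2 and 26.1, a ratio of 0.637. Of the 22, 4 were Kv1 genes and none SK, BK alpha or EAG. Those above in both libraries numbered 1 were Kcnj6, Kcnj8, Kcnk9, Kcnk10, Kcnmb4 and Kcnh4, the last named after its values were seen. Sex and any other difference of these 2 libraries cannot be told apart. The summed FPKM of 7 astrocyte markers was 1077, 1361 and 1170 in WT and 1620, 1731 and 1275 in 5xFAD. Within it, Gfap was at 118, 99.1 and 95.9 FPKM in WT and at 589, 449 and 106 in 5xFAD. Slc1a2 and Gja1 were lowest in both libraries numbered 1, as Kcnj10 was, and the other markers were not. Slc1a2 was at 513, 752 and 601 FPKM in WT and at 515, 720 and 666 in 5xFAD. The part of astrocytes in Kcnj10, which differed between genotypes by 0.11 (SE 0.26), was not tested.

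**Figure D3:**
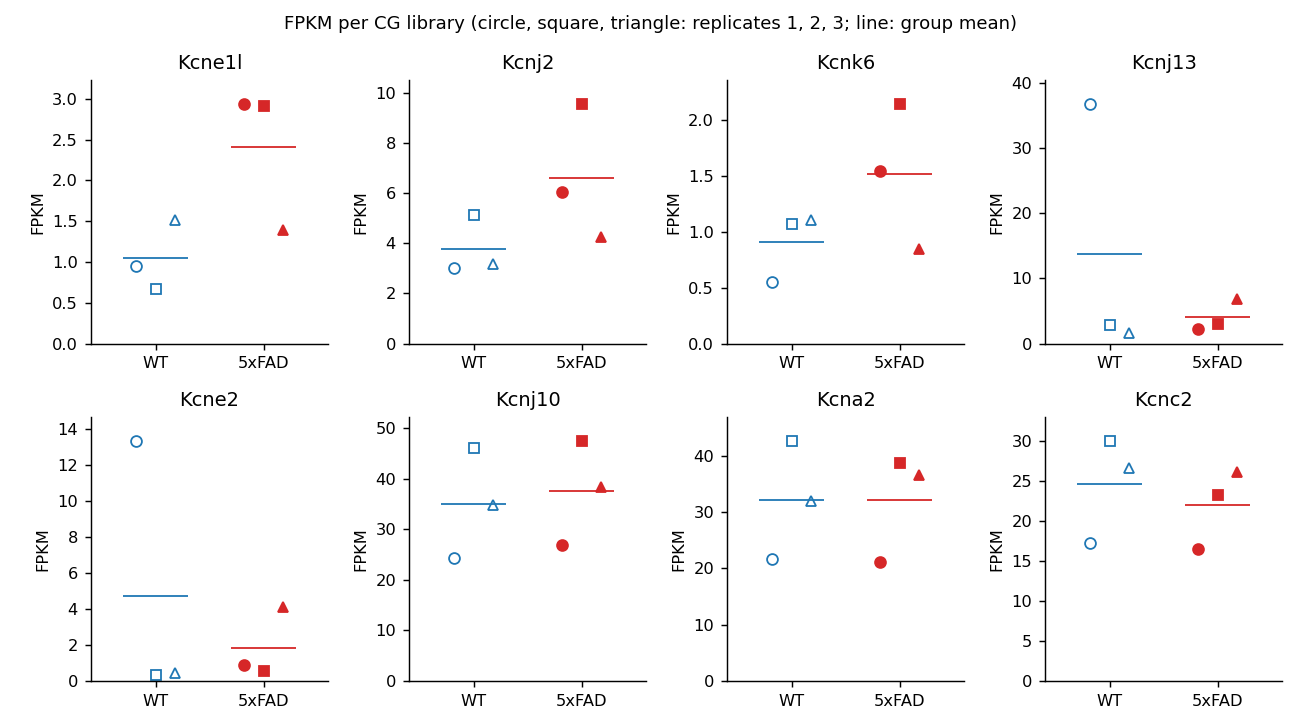
FPKM in each CG library of 8 potassium channel genes, WT in open blue and libraries labelled 5xFAD in filled red, with circle, square and triangle for replicates 1, 2 and 3 and a line for the group mean. Kcne1l, Kcnj2 and Kcnk6 are higher in 2 libraries labelled 5xFAD, Kcnj13 and Kcne2 are high in WT replicate 1, and Kcnj10, Kcna2 and Kcnc2 are lowest in the circles of both genotypes.

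Of the genes that work with these channels, a list of 26 partners, 24 were tested. Limma called 0 with 6 and 0 with 5 libraries, beside 0.0069% and 1.2% of all genes. Their median log2 difference was -0.04 with 9 of 24 positive over 6 libraries, beside -0.01 and 45.8% over all genes. In either fit 0 had an unadjusted p under 0.05, beside 2.92% of all genes with 6 libraries and 5.91% with 5. The smallest p-values belonged to Lrrc26, a BK auxiliary protein, which differed by 0.25, to Cntnap2, which anchors Kv1 channels beside the node, at -0.16, to Dpp6, a Kv4 auxiliary protein, at -0.11, and to the scaffold Dlg4 at -0.10.

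In the AT libraries, 15 of the 98 members hosted at least 1 listed junction, beside 12.1% of all 24318 genes, and all 15 were among the 79 tested members, beside 20.2% of all genes tested. The table lists only junctions that passed the authors' selection, so a member with none listed is not shown to lack a circle. Hosts were listed in some families and not in others. Kcnma1, the BK pore gene, hosted 9 junctions. Of the Kv7 genes Kcnq5 hosted 6 and Kcnq3 hosted 2. The K2P genes Kcnk10 and Kcnk2 hosted 6, the EAG genes Kcnh1 and Kcnh5 hosted 5, and Kcnt2 hosted 5. Kcnab1 hosted 4 and Kcnip3 hosted 3, while Kcnj6, Kcnb2, Kcnn2 and Kcnmb2 hosted 1 each. None of the 8 Kv1, 4 Kv3, 3 Kv4 or 10 silent subunit genes had a listed junction, although Kcna1 and Kcnd2 were at 43.1 and 37.3 FPKM in WT. By class, hosts made up 3 of 7 tested calcium- or sodium-activated pore genes (42.9%) and 3 of 11 auxiliary subunits (27.3%). They made up 2 of 9 K2P genes (22.2%), 6 of 35 Kv pore genes (17.1%) and 1 of 12 inward rectifiers (8.33%). Beside the 20.2% of all genes tested, these counts are too small to be read as traits of a class.

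Hosting followed the level of the host only in part. Among members from 0.5 to 5 FPKM in WT, 2 of 28 (7.14%) were hosts, beside 6.47% of all genes at that level, and from 5 to 20 FPKM 6 of 27 (22.2%), beside 24.1%. From 20 to 50 FPKM 3 of 17 members (17.6%) were hosts, beside 32.7% of all genes, and at 50 or more 4 of 6 (66.7%), beside 30.6%. The WT mean of the 15 hosts had a median of 17.5 FPKM, and the lowest was 1.53 for Kcnmb2. Of the 64 tested members without a listed junction, 21 were above that median, and Kcnab2, at 174 FPKM the highest of all members, was one of them.

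Junction signal and host FPKM come from different libraries and units, so their ratio serves only to rank hosts. Kcnk10, a K2P channel at 4.93 FPKM in WT, had a summed signal of 101.5 and a ratio of 20.6 per FPKM, at percentile 96.8 of 2947 hosts. Kcnh1 was at percentile 91.8, Kcnt2 at 87.7, Kcnmb2 at 86.9 and Kcnj6 at 84.6. At the low end were Kcnq3, with 43.8 FPKM, a signal of 17.9 and percentile 26.5, and Kcnb2 at 29.1. Across the 15 hosts Spearman's rho between WT FPKM and WT summed signal on the log2 scale was 0.486 and Pearson's r 0.560, given as a description over genes that share the same libraries.

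The junctions differed widely in abundance. The leading one, in Kcnj6, ranked 37 of 7025 by mean signal and was the gene's only listed junction, at chr16:95053905-95054826 (mm9). Its signal was 197, 370 and 470 in WT and 175, 405 and 582 in 5xFAD, from 202 to 2435 reads a library, and both libraries numbered 1 were lowest. For Kcnma1 the leading junction was chr14:24183022-24205575, which held 62.7% of the summed signal of its 9 junctions, at 70.7, 82.7 and 88.6 in WT and 65.0, 64.9 and 95.8 in 5xFAD. Its groups overlapped, as did those of every junction in this paragraph and the next. No mm9 annotation was used here, so whether these boundaries fall in exons, introns or UTRs is not stated.

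The next junctions came from 6 other genes. In Kcnk10, chr12:99728114-99757042 was at 47.9, 62.7 and 57.1 in WT and 40.7, 65.8 and 69.5 in 5xFAD, and a second junction inside it, chr12:99756707-99757042, spanned 335 bases. In Kcnh1, chr1:194045214-194065919 was at 50.9, 45.3 and 58.9 in WT and 46.8, 38.6 and 60.2 in 5xFAD, and it shared its upper boundary with 2 others of the gene. The Kcnip3 junction chr2:127290783-127291714 was at 25.4, 58.8 and 25.5 in WT and 80.6, 55.1 and 34.7 in 5xFAD. Kcnab1 had chr3:65099186-65123427 at 62.5, 40.6 and 31.3 in WT and 67.6, 24.6 and 39.0 in 5xFAD. The single Kcnn2 junction averaged 33.6 ± 21.6 (SD) over 3 WT libraries against 29.4 ± 17.2 over 3 of 5xFAD. The leading Kcnq5 junction, chr1:21447484-21459645, was at 35.9, 28.3 and 17.1 in WT and 51.1, 19.0 and 21.0 in 5xFAD.

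Kcnt2 stood out for 1 library. Its junction chr1:142259525-142279672 was at 50.1, 25.1 and 25.0 in WT and at 0, 96.0 and 32.0 in 5xFAD, from 0 reads in 5xFAD replicate 1 and 425 and 134 in the others. A count of 0 in that library, the shallowest at 191408 reads, allows up to 3 reads, or a signal of 2.60, for counting error only. A second junction of the gene with the same lower boundary, chr1:142259525-142346881, was at 6.93 in 5xFAD replicate 1 and between 17.3 and 67.3 in the other 5 libraries. The summed signal of the 5 Kcnt2 junctions was 124, 113 and 118 in WT and 29.5, 206 and 109 in 5xFAD. The log2 difference of this sum was -0.43 (SE 0.52) with all libraries and 0.34 without 5xFAD replicate 1, and it did not pass in either. In the CG libraries Kcnt2 itself had 16.5, 12.9 and 15.9 FPKM in 5xFAD. The labels tie no CG library to an AT library, so these values do not show the host RNA of that AT library.

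Boundaries were often shared. Of the 45 junctions 35 shared a start or an end with another junction of their gene, 77.8% beside 55.2% of junctions with a named gene in the whole table, and hosts had a median of 2 listed junctions beside 1 over all hosts. The interval, as end minus start, ran from 335 to 189143 bases with a median of 15362, beside 9516 over all junctions. Intervals under 1000 bases made up 20.0% of the members' junctions and 9.51% of all, and those of 50000 bases or more 20.0% and 9.71%. Kcnma1 had both the longest interval, chr14:24622361-24811504, and one of 164005 bases that began at the same place. In Kcnt2, 3 of 5 junctions began at 1 boundary, and in Kcnq5 each of the 6 junctions shared a start or an end with another.

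**Figure D4:**
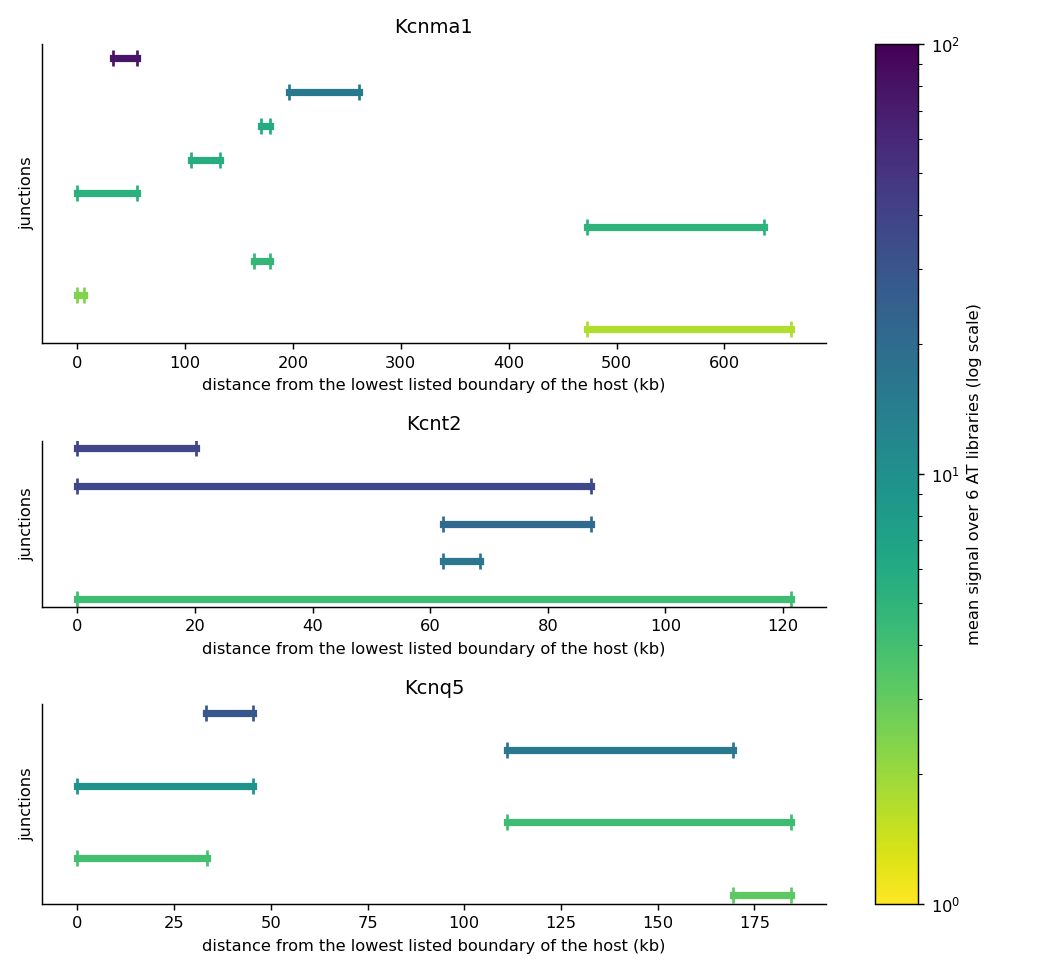
Listed back-splice intervals of Kcnma1 (9 junctions), Kcnt2 (5) and Kcnq5 (6), drawn to scale as bars between their 2 boundaries by distance in kb from the lowest boundary of the host, ordered and coloured (log scale) by mean signal over the 6 AT libraries. A single Kcnma1 interval reaches a mean of 78.0 while its other 8 lie at 15.4 or below, and bars that start or end at the same distance share a boundary.

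Between genotypes, limma called 0 of 45 junctions, beside 0% of 7025, and 1 of 45 had an unadjusted p under 0.05, beside 5.68%. On the recovered reads edgeR's quasi-likelihood test called 0 of 45, beside 0% of all, and DESeq2 0 of 45, beside 0.0142%, and neither had a member junction at an unadjusted p under 0.05. The signs were mixed, with 18 of 45 differences positive and a median of -0.09, beside -0.06 over all junctions. Groups did not overlap in 2 member junctions higher in 5xFAD, beside 4.43% of all, and in 1 lower in 5xFAD, beside 6.65%.

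Those 3 junctions all had few reads. In Kcnma1, chr14:24622361-24811504 was at 1.12, 1.14 and 0.234 in WT and 2.60, 2.71 and 2.63 in 5xFAD, from 3, 5 and 1 reads and 3, 12 and 11 reads. Its log2 difference on the log2(signal + 1) scale was 1.04 (SE 0.51, limma adjusted p = 0.887). The authors' deposited table gives this junction a log2 ratio of 1.56 and an adjusted p of 3.75e-07, the only 1 of the 45 under 0.05 in the authors' deposited table, beside 3.76% of all junctions there. The other, Kcnma1 chr14:24150061-24156280, was at 5.61, 2.51 and 3.27 in WT and 0.866, 1.13 and 0.956 in 5xFAD, from 15, 11 and 14 reads and 1, 5 and 4 reads, a difference of -1.22 (SE 0.54, limma adjusted p = 0.845). It began at the same boundary as a junction of the gene, chr14:24150061-24205575, that differed by 0.15. Kcnb2 chr1:15302443-15303111 was at 1.497, 4.10 and 4.68 in WT and 5.20, 6.78 and 11.5 in 5xFAD, from 4, 18 and 20 reads and 6, 30 and 48 reads, a difference of 1.02 (SE 0.64, limma adjusted p = 0.918).

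The remaining junctions with the smallest p overlapped between groups. In Kcnq5, chr1:21414129-21447705 was at 12.3, 3.19 and 2.10 in WT and 0, 5.20 and 0.956 in 5xFAD, a difference of -1.28 (SE 0.77). A junction with the same lower boundary, chr1:21414129-21459645, had the opposite sign at 0.85 (SE 0.65), and chr1:21525141-21598469 of the gene differed by -0.95 (SE 0.76). The leading Kcnip3 junction differed by 0.65 (SE 0.44), Kcnt2 chr1:142321769-142328010 by -0.64 (SE 0.53) and Kcnip3 chr2:127285065-127291714 by -0.81 (SE 0.68). Kcnma1 chr14:24320346-24329122 differed by 0.65 (SE 0.65). None of these differences passed limma's adjusted test, and the median member junction had 232 reads over all 6 libraries.

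**Figure D5:**
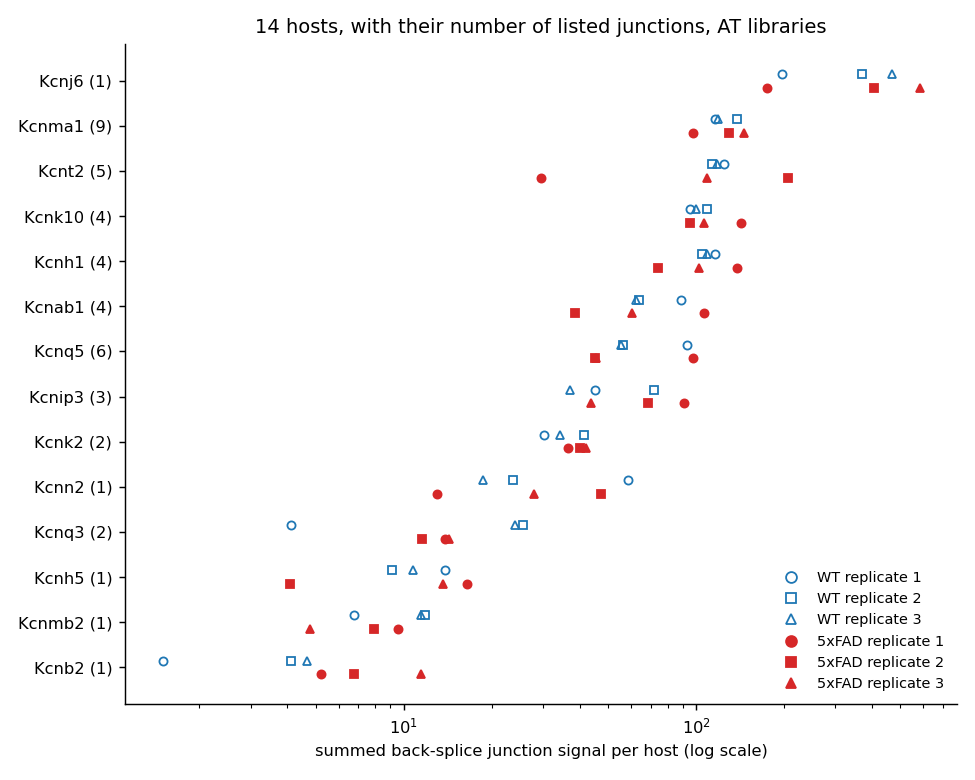
Summed signal (log axis) of all listed junctions of 14 hosts, with the number of junctions after the name, 1 point per AT library, open blue for WT and filled red for 5xFAD. Kcnj6 is highest at 175 to 582, Kcnt2 has 1 low point of 29.5 in 5xFAD replicate 1, and Kcnb2 is the only host drawn whose groups do not overlap, with no share over all hosts given.

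Summed over all its junctions, no host passed either. Limma called 0 of 15 member hosts, beside 0% of 2947, with 0 at an unadjusted p under 0.05, beside 3.56%, and edgeR and DESeq2 on the recovered reads also had 0 at an unadjusted p under 0.05. Differences ran from -0.43 for Kcnt2 to 1.02 for Kcnb2, with 6 of 15 positive and a median of -0.08, beside -0.05 over all hosts. Kcnb2 was the 1 host whose groups did not overlap, and it rested on the single junction given above. The share of all hosts without overlap is not given here, so this count is not read as a trait of Kcnb2. Kcnma1, with 9 junctions, was at 124 ± 11.95 (SD) over 3 WT libraries against 124 ± 24.4 over 3 of 5xFAD, a difference of -0.01 (SE 0.25). Kcnj6 differed by 0.09 (SE 0.41). The hosts' own FPKM differed by -0.10 for Kcnj6 and -0.09 for Kcnma1 in the 6 CG libraries, and by 0.06 for Kcnb2.

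The libraries numbered 1 stood apart here too, and they were the shallowest. Both were below the other 4 in 3 of 15 hosts, Kcnj6 and Kcnma1 among them, beside 11.6% of all hosts, and above them in 4 (Kcnh1, Kcnab1, Kcnq5 and Kcnh5), beside 15.7%. Kcnq5 was at 92.8 and 97.9 in the libraries numbered 1 of WT and 5xFAD and at 56.3, 55.2, 44.97 and 45.6 in the other 4. Depth and any other difference of these libraries cannot be told apart. The share of all junction signal assigned to the 45 members was 0.630%, 0.793% and 0.795% in WT and 0.623%, 0.818% and 0.907% in 5xFAD.

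Of the 26 channel partners, 9 hosted 35 listed junctions, beside 12.1% of all genes and 20.2% of all genes tested that hosted any. From 20 to 50 FPKM in WT 32.7% of all genes were hosts, and at 50 or more 30.6%. Partners were not matched to other genes by level, so this count is not read as a trait of the partners. Limma called 0 of the 35 junctions, beside 0% of 7025, with 1 at an unadjusted p under 0.05, beside 5.68%. Dpp6, the Kv4 partner, had 8 junctions with a summed signal of 235 in WT and 266 in 5xFAD, and Dlg1, a scaffold that binds Kv1 channels, had 8 with 160 and 161. Ank3, which holds Kv7 channels at the axon initial segment, had a single junction at 166 in WT and 159 in 5xFAD. Dpp10, a relative of Dpp6, had 7 junctions at 42.0 and 56.1. These 4 were named for their signal or number of junctions after the values were seen.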

How the data were processed

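RNA of 12 hippocampal libraries (4 groups of 3) was analysed. Per the labels' protocols, RNA was extracted with TRIzol, depleted of rRNA with Ribo-Zero, built into NEBNext Ultra libraries and read from both ends. The submitters' processing notes name mm9 and DESeq, and no source used here gives the aligner, quantifier, junction caller or strand setting. CG values are FPKM per gene as deposited by the authors. AT values are signal per junction as deposited, all whole multiples of 1 step per library within 0.01, from which whole reads were recovered. The authors' deposited table also gives, per junction, its log2 ratio and p-value, raw and adjusted. FPKM and signal are shares of a library, so they do not show amounts.

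Each table was fitted whole with limma (mean trend) on log2(value + 1), two-sided, Benjamini-Hochberg adjusted p under 0.05. Genes needed a mean of at least 0.5 FPKM, and all junctions were tested. Host sums added the signal of all junctions of a named gene. Fits were tested on simulated data. At the spread of the AT libraries, limma missed most of the large junction differences put into these data. A junction that was not called may therefore still differ. Software was R 4.3.3, limma 3.58.1, edgeR 4.0.16 and DESeq2 1.42.0. Intervals as coordinates are the files' own, and their counting base is not given. The members, families, lists, tests and named-gene rule were chosen with earlier results of these data known.

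Named genes were up to 3 of highest WT mean per family, the 6 higher and 6 lower members with the smallest p in the fits of 6 and 5 libraries, any called, and Kcnj10, Kcnj16, Kcnj8, Kcnj13, Kcne2, Kcnk6, Kcnk13, Kcnn4 and Kcna3. Named junctions were the 10 most abundant, 5 higher and 5 lower with the smallest p, any called, and the leading one of hosts with 3 or more. Of each list, up to 4 genes of smallest p were named. Marker lists of other cell types were summed per library. The list of vessel cells (63.7 to 79.0 FPKM in all libraries) is not used further. RefSeq tables of GRCm38.p6 gave promoter sequences and overlapping neighbours. Kcnk12, Kcnh4, the 335-base Kcnk10 junction and 2 further Kcnma1 junctions fall outside the rule and were named after their values were seen. Some members are not reported here by name, while counts and medians cover every member.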

Additional observations from a re-analysis of the deposited data

How the results depend on the processing

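The counts of potassium channel genes, junctions and hosts called were 0 under every alternative with limma, and with edgeR and DESeq2 for junctions and hosts, with 1 exception. The replicate block (replicate number as a factor) called 0 members with 6 CG libraries. Combined with leaving out the library labelled 5xFAD replicate 3, a fit added after seeing the data, it called 2 of 78 members higher. They were Kcne1l (1.12, limma adjusted p = 0.0243) and Kcnj2 (0.80, limma adjusted p = 0.0313), among 201 genes called (1.38%). WT replicate 3 then had no partner of its number, so the genotype differences of that fit rested on replicates 1 and 2 alone. Same-numbered CG libraries deviated together with correlations of 0.415, 0.279 and 0.0398, and AT libraries with 0.0676, 0.0884 and 0.0401. Differently numbered CG libraries ran from -0.358 to 0.153, and AT libraries from -0.113 to 0.0815. The CG libraries numbered 1 thus deviated together most. The main fits did not take the numbers as pairs, so any difference by number stayed in their error. Over all genes, 1 was called with 6 libraries and 174 without the library labelled 5xFAD replicate 3, and each other left-out CG library gave 1. DESeq2 called 1 of all junctions and 1 of all hosts, where limma called 0. Of 34 single differences followed through 416 alternative values, 402 kept their sign and side of the threshold and 12 changed sign, none of them a call. With 1 library left out, Kcnf1 ranged from -0.35 to 0.052, Kcnj13 from -1.35 to 0.58, Kcne2 from -0.89 to 0.83, Kcnj10 from -0.12 to 0.32, the Kcnj6 host sum from -0.29 to 0.58 and the Kcnt2 host sum from -1.04 to 0.34. The Kcnt2 sum was 0.051 with edgeR and 0.061 with DESeq2. The cause was not tested. Depth in reads is unknown for CG, and 0.866 of signal is 1 read in AT 5xFAD replicate 1, against 0.226 to 0.374 elsewhere.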
